A study of Mus musculus with 48 samples.

Results

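The genes of the major histocompatibility complex (MHC) class II antigen presentation pathway were followed in mouse blood and medial prefrontal cortex (mPFC). The 10 genes were H2-Aa, H2-Ab1, H2-Eb1, Cd74, Ciita, H2-DMa, H2-DMb1, H2-DMb2, H2-Oa and H2-Ob. Probes were taken by the gene name that the array files give, and control spots were left out. All 10 genes had a probe, 13 of the 55681 non-control probes in all: 2 for H2-Ab1, 3 for H2-Ob and 1 for each other gene. The mice were 17-week-old C57BL/6J females in 4 groups of 6. Control mice had a sham operation and no stress, CUMS mice a sham operation and chronic ultra-mild stress (CUMS), OVX mice an ovariectomy (OVX) and no stress, and OVX+CUMS mice both. Each mouse gave a blood cell pellet, spun from heparinised blood, and its mPFC. The RNA of each was hybridised to its own single-colour array, so that each of the 24 mice had 2 arrays, 48 in all. The pellet holds red cells, platelets and leukocytes together, so a lower value in a bulk sample cannot be told apart as fewer cells of a type or less RNA per cell.

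MHC class II molecules present peptides, mostly from ingested proteins, to CD4 T cells, and in resting animals they are made chiefly by B cells, dendritic cells and macrophages. An alpha chain pairs with a beta chain in the endoplasmic reticulum, where the invariant chain Cd74 fills the groove and guides the complex to the endosome. There H2-DM exchanges the remnant of the invariant chain for peptide, and H2-DO restrains H2-DM mainly in B cells. Ciita, which binds no DNA itself, switches class II genes on through factors assembled at a shared promoter module. C57BL/6 mice make the A pair (H2-Aa with H2-Ab1) but no E alpha chain, so that the E beta chain H2-Eb1 has no partner.

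The shared module is shown first, and whether it bears on the values in blood was not tested. RefSeq promoter windows (GRCm38.p6, 250 bases before to 50 after the start) were on hand for 7 of the 10 genes and not for H2-Ab1, Cd74 and Ciita. Capitals mark AACNNATG, a short form of the X box core read by the RFX complex, and GATTGG, the reversed CCAAT box (Y box) read by NF-Y. Both were written down after the sequences had been seen. In 4 member genes AACNNATG preceded GATTGG on the gene's own strand.
H2-Eb1 (chr17:34305766-34305824, plus strand): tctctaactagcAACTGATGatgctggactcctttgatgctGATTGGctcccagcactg
H2-DMb1 (chr17:34153087-34153146, plus strand): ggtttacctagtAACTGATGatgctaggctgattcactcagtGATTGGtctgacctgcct
H2-DMb2 (chr17:34145116-34145175, plus strand): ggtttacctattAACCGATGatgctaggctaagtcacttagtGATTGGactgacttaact
H2-Ob (chr17:34238808-34238864, plus strand): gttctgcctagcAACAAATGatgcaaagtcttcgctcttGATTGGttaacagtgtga
The letters between the 2 motifs numbered 21 in H2-Eb1, 22 in H2-DMb1 and H2-DMb2, and 19 in H2-Ob. H2-Aa and H2-Oa held GATTGG alone, 49 and 44 bases before the start.
H2-Aa (chr17:34287855-34287906, minus strand): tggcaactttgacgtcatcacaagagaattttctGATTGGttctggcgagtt
H2-Oa (chr17:34092301-34092352, plus strand): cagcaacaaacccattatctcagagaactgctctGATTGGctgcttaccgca
H2-DMa had 2 windows, of which 1 held GATTGG, 199 bases before the start. Over 32851 promoter windows of 300 bases, on either strand, 8.864% held AACNNATG, 16.11% held GATTGG and 1.397% held both. The pair in that order on 1 strand, at most 40 bases apart, was found in 36 windows (0.1096%), counting the 4 here. A match describes the letters only.

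The probes themselves matter for reading the values. The annotation in the array files places 11 of them on chromosome 17 of mm9. The 2 H2-Ab1 probes overlap by 51 bases and differ there by T51C, counted from 1 at the 5′ end of A_55_P1962747, so they read nearly the same stretch of 1 transcript. The base that differs is in capitals. For each probe 30 of the 60 bases are printed, and the coordinates are those of the whole probe.
H2-Ab1 A_55_P1962747 (chr17:34406296-34406355): agattacaaataaacgagacTcagactctg
H2-Ab1 A_55_P2146560 (chr17:34406305-34406363): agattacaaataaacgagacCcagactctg
The 3 H2-Ob probes read different places, and they are shown because they behaved differently between tissues. A_66_P130916 spans 369 bases of genome, longer than its 60 bases. A_55_P2082929 carries the polyadenylation signal letters AATAAA (capitals), and A_55_P2057931 was designed to another transcript. The first is printed whole and the others as 30 of their 60 bases, with the coordinates of the whole probe.
H2-Ob A_66_P130916 (chr17:34380481-34380849): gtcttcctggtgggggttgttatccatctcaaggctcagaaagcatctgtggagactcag
H2-Ob A_55_P2082929 (chr17:34382790-34382849): ttctacaatgtcAATAAAgaacatccactg
H2-Ob A_55_P2057931 (chr17:34377309-34377368): ttgccttcaacatgagtgtagtgttcagaa
The Ciita probe, A_55_P2179074, is a simple repeat, 39 of its 60 bases being adenines, and whether its signal comes from Ciita was not tested.

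Levels are log2 of the processed signal minus the log2 75th percentile of the same array, so that 0 is the 75th percentile and a difference of 1 is a doubling. That percentile lay between 54.9 and 191.5 signal units in blood and between 571.6 and 688.8 in mPFC, and in blood it averaged 109.9 in control, 86.3 in CUMS, 144.1 in OVX and 125.7 in OVX+CUMS mice. The lowest, 54.9, was that of CUMS mouse 2, whose array also had the fewest blood probes well above background, 23602. A probe counted as detected when it was well above background on all 24 arrays of a tissue and above 50 signal units on at least 2, which 20767 probes met in blood and 28358 in mPFC. The arrays came on 3 slides per tissue of 8 arrays each. Slide 1 held all 6 control and 2 CUMS arrays, slide 2 the other 4 CUMS and 4 OVX arrays, and slide 3 the other 2 OVX and all 6 OVX+CUMS arrays, so control never shared a slide with OVX or with OVX+CUMS. In blood 6 of 7 erythroid genes were detected, and in mPFC 6 of 6 neuron genes. Blood arrays also read 3 of the 6 neuron genes (Snap25, Gad1 and Camk2a) on every array. Of 9 B cell genes on the array (among them Cd79a, Cd79b, Ms4a1, Cd22, Pax5, Blk, Fcrla and Fcer2a), 9 were detected in blood and 3 in mPFC.

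In blood 12 of the 13 probes, covering all 10 genes, were detected. The exception was H2-Ob A_55_P2057931, well above background on 2 of 24 arrays. In mPFC 8 probes of 7 genes were detected: H2-Ab1 with both probes, H2-Eb1, Cd74, H2-DMa, H2-DMb1, H2-Oa and H2-Ob A_66_P130916. The H2-Aa probe was well above background on 17 of 24 mPFC arrays, Ciita on 16, H2-Ob A_55_P2082929 on 19, and H2-DMb2 and H2-Ob A_55_P2057931 on 1 each, and these 5 were not tested there. Among relatives outside the list, the E alpha pseudogene H2-Ea-ps was above background on 3 of 24 blood and 0 of 24 mPFC arrays, and the E beta relative H2-Eb2 on 24 and 0.

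**Figure D1:**
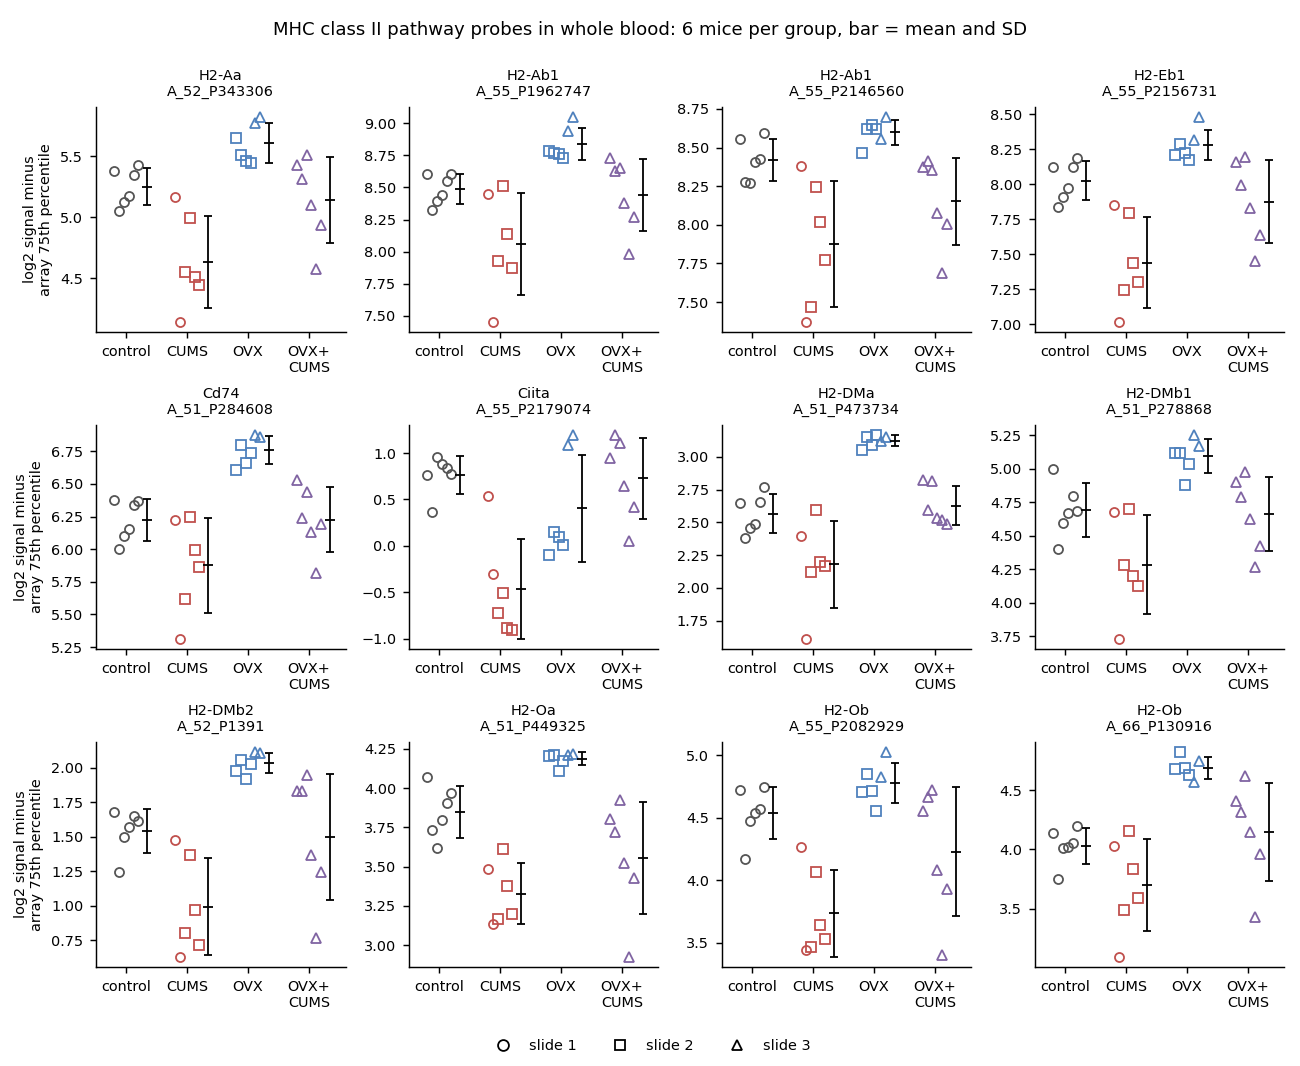
Level of the 12 detected probes in whole blood (vertical axis, log2 of the signal minus the array's 75th percentile, a separate scale in each panel) for the 6 mice of each group. Point shapes give the slide and the bar beside each group the mean with its SD. On 11 of the 12 probes every OVX mouse sits above every CUMS mouse, Ciita being the exception.

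In blood the class II genes were higher after ovariectomy and lower after stress, and with both their median difference from control was -0.05 on the log2 scale. Effects are means over the other factor: the OVX effect averages OVX minus control and OVX+CUMS minus CUMS. With ovariectomy 10 of the 12 detected probes were called higher (limma, adjusted p under 0.05), with a median effect of 0.40 on the log2 scale over the 12, from 0.23 to 0.56. Of all 20767 detected probes 55.1% were called for this effect, 27.4% as higher, with a median of 0.04. With stress all 12 were called lower, with a median effect of -0.47, from -0.68 to -0.41. Of all detected probes 48.5% were called for stress, 29.4% as lower, with a median of -0.03. These calls treat the slide as if it had no effect. With the slide as a fixed block 12 of 12 were still called for stress but 0 of 12, and 0 of all 20767 probes, for ovariectomy. Control and OVX+CUMS mice shared no slide, and with the block their difference had a median of -0.33, below 0 on all 12 probes, with 0 of 12 and 0 of all probes called.

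The chains of the class II dimer come first. H2-Aa, the A alpha chain, ran at 5.05, 5.26 and 5.42 (lowest, median, highest) in control mice and 4.14, 4.53 and 5.17 in CUMS mice. It ran at 5.44, 5.58 and 5.82 in OVX mice and 4.57, 5.20 and 5.51 in OVX+CUMS mice. All OVX mice were above all control mice, while the CUMS and control ranges overlapped. The OVX effect on H2-Aa was 0.43 (SE 0.11, limma adjusted p = 0.00345) and the CUMS effect -0.54 (SE 0.11, adjusted p = 0.00166).

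H2-Ab1, the A beta chain, gave 8.32, 8.50 and 8.61 on A_55_P1962747 in control, 7.45, 8.03 and 8.51 in CUMS, 8.73, 8.78 and 9.05 in OVX and 7.98, 8.50 and 8.73 in OVX+CUMS mice. Every OVX mouse again exceeded every control mouse. The probe that differs at the marked base gave 8.27, 8.41 and 8.59 in control and 8.46, 8.62 and 8.70 in OVX mice, which overlapped. Its OVX effect was 0.23 (SE 0.11, adjusted p = 0.0716) against 0.37 (SE 0.11, adjusted p = 0.00657) for A_55_P1962747, so the 2 readings of nearly 1 stretch fell on either side of the threshold. Their CUMS effects were -0.41 and -0.50, both called.

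H2-Eb1, the E beta chain left without its partner, was read at 7.84, 8.05 and 8.18 in control, 7.02, 7.37 and 7.85 in CUMS, 8.17, 8.25 and 8.48 in OVX and 7.45, 7.91 and 8.19 in OVX+CUMS mice. The highest control mouse and the lowest OVX mouse were nearly level, so these groups just overlapped. The OVX effect was 0.35 (SE 0.098, adjusted p = 0.00599) and the CUMS effect -0.49 (SE 0.098, adjusted p = 0.0013).

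Cd74, the invariant chain, whose probe lies on chromosome 18, stood at 6.00, 6.25 and 6.38 in control and 6.61, 6.77 and 6.88 in OVX mice, without overlap. It stood at 5.31, 5.93 and 6.24 in CUMS and 5.82, 6.22 and 6.53 in OVX+CUMS mice. The OVX+CUMS mice lay wholly below the OVX mice and had the same mean as the control mice, 6.22. The OVX effect was 0.44 (SE 0.099, adjusted p = 0.00124) and the CUMS effect -0.44 (SE 0.099, adjusted p = 0.0023).

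H2-DMa, the alpha chain of the peptide editor, had a narrow OVX group, at 3.05, 3.14 and 3.17. Control mice gave 2.38, 2.57 and 2.77, CUMS mice 1.61, 2.18 and 2.60, and OVX+CUMS mice 2.49, 2.56 and 2.82. The OVX mice stood above all mice of the other 3 groups. The OVX effect was 0.50 (SE 0.086, adjusted p = 0.000181) and the CUMS effect -0.44 (SE 0.086, adjusted p = 0.00118). Its beta chains followed: H2-DMb1 had effects of 0.39 and -0.42 and H2-DMb2 of 0.50 and -0.54 for OVX and CUMS, all called. H2-DMb2 ran at 1.25, 1.59 and 1.68 in control and 1.92, 2.04 and 2.11 in OVX mice, which did not overlap, while the H2-DMb1 ranges, up to 5.00 in control and from 4.88 in OVX mice, did.

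H2-Oa, the alpha chain of the DM inhibitor H2-DO, was at 3.62, 3.85 and 4.07 in control and 3.14, 3.29 and 3.61 in CUMS mice. It was at 4.11, 4.21 and 4.22 in OVX and 2.93, 3.62 and 3.93 in OVX+CUMS mice. This was the only member probe on which all CUMS mice were below all control mice. Its OVX effect was 0.28 (SE 0.093, adjusted p = 0.0144) and its CUMS effect -0.58 (SE 0.093, adjusted p = 0.000701). The beta chain H2-Ob rose with OVX by 0.56 on A_66_P130916 and 0.37 on A_55_P2082929, and fell by 0.44 and 0.68 with CUMS, all 4 called. A_66_P130916 ran at 4.57, 4.69 and 4.82 in OVX mice, and all control mice, with a median of 4.04, lay below that range.

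The probe named for Ciita, the switch of the pathway, showed another order of groups. This repeat, whose signal may not be that of Ciita, gave 0.37, 0.81 and 0.96 in control, -0.90, -0.62 and 0.53 in CUMS, -0.10, 0.12 and 1.20 in OVX and 0.05, 0.79 and 1.19 in OVX+CUMS mice. The medians of the stressed sham and the unstressed OVX mice were both below that of the control mice. The OVX effect was 0.42 (SE 0.18, adjusted p = 0.0515), the CUMS effect -0.45 (SE 0.18, adjusted p = 0.0395) and the interaction of both 1.56 (SE 0.36, adjusted p = 0.0436). Ciita was the 1 of 12 probes called for the interaction, against 1.42% of all detected probes, 1.29% in the same direction. The values went with the slide: on slide 2 the means were -0.76 for CUMS and 0.03 for OVX mice, while on the other slides they were 0.11 for CUMS and 1.14 for OVX mice. With the slide as a block the interaction was 0.24 and not called, and it was called in 5 of the 24 fits that each left out 1 mouse. The array files describe 2 further probes as Ciita without giving its name, and these were looked at after the values above had been seen. A_55_P2143641 was detected in blood, with effects of -0.06 for OVX (adjusted p = 0.510), -0.15 for CUMS (adjusted p = 0.119) and 0.51 for the interaction (adjusted p = 0.0838), and none was called. A_55_P2035003 was well above background on 23 of 24 blood arrays and was not tested.

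Over the pathway, 7 of 12 probes had every OVX mouse above every control mouse, which 7.34% of all detected probes did, and 1 (H2-Oa) had every CUMS mouse below every control mouse, against 2.67%. On 5 (both H2-Ab1 probes, Cd74, H2-DMa and H2-Oa) every OVX+CUMS mouse was below every OVX mouse, against 6.99%. On 11, Ciita being the exception, every OVX mouse was above every CUMS mouse, against 18.3%. On 0 of 12 did OVX+CUMS mice stand apart in either direction from control mice (8.18% of all detected probes) or from CUMS mice (5.34%). OVX+CUMS minus control was called for 0 of 12 probes by limma, with 6.26% of all probes called, and 1 (H2-Oa, -0.29) had an unadjusted p under 0.05. The 12 differences ran from -0.31 to 0.12, and the interval of Cd74 was -0.29 to 0.29, so a change within those bounds could not be seen with 6 mice a group. CUMS mouse 2, with the lowest 75th percentile of the blood arrays, was the lowest of its group on 11 of the 12 probes and OVX+CUMS mouse 5 of its own on 11 of 12. Without CUMS mouse 2 OVX was called for 10 probes and CUMS for 12. Without OVX+CUMS mouse 5 OVX was called for 12 probes and CUMS for 11.

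The slide layout bears on ovariectomy more than on stress. With the slide as a fixed block the CUMS effect was called for 12 of 12 probes with a median of -0.55 (10317 of all 20767 probes called), and within slides 1 and 3 alone its medians were -0.54 and -0.55, with 0 of 12 and 0 of all probes called. At an unadjusted p under 0.05 stood 9 and 8 of 12, and 6391 and 7625 of all probes. The OVX effect then had a median of 0.25, above 0 on all 12 probes, with 0 at an unadjusted p under 0.05 (1317 of all probes), and with the slide as a random block 5 of 12 and 4652 of all probes were called, so ovariectomy and slide cannot be told apart here. The comparison within 1 slide, CUMS minus OVX on slide 2 with 4 mice each, was called lower for 12 of 12 probes against 52.2% of all probes called and 27.9% called lower, with a median of -0.81, from -1.03 to -0.65. When arrays were scaled by the spiked-in control RNAs in place of the 75th percentile, the median of all probes shifted to 0.39 for OVX and -0.21 for CUMS, and the members' medians to 0.75 and -0.66, with the same direction on all 12.

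**Figure D2:**
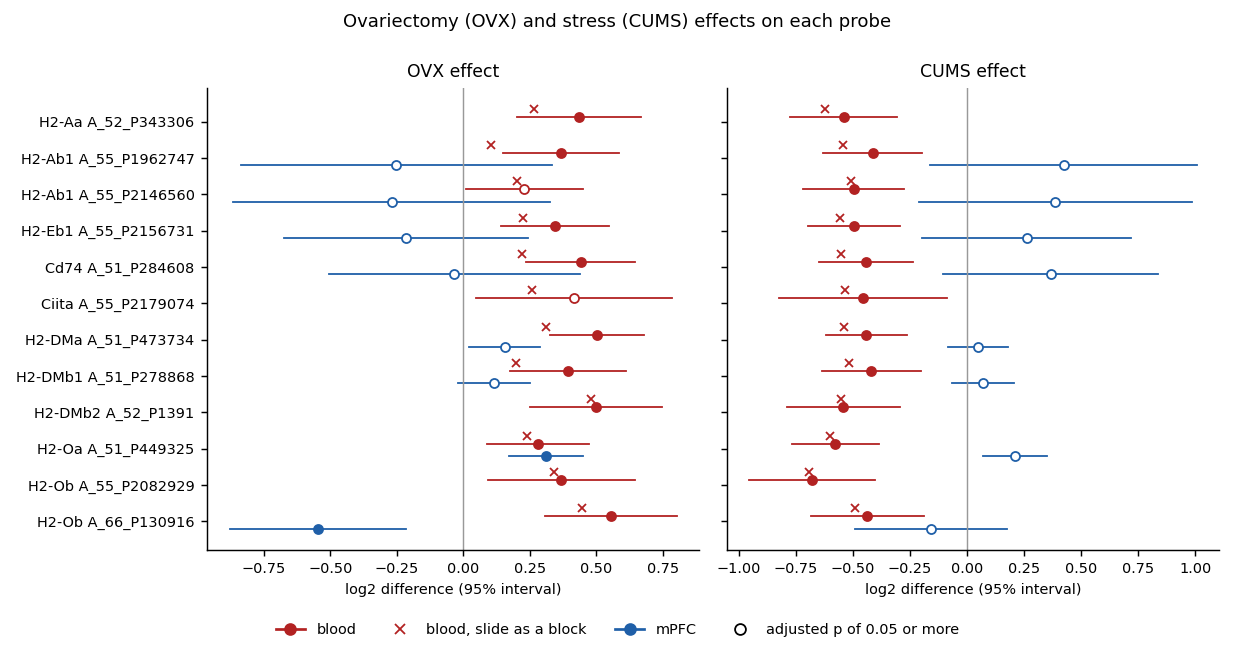
Ovariectomy effect (left) and stress effect (right) for each probe, in log2 units with 95% intervals, in blood and mPFC, with filled points for an adjusted p under 0.05. Crosses give the blood effect with the slide as a block: for stress they run from -0.69 to -0.49, for ovariectomy they lie closer to 0, between 0.10 and 0.48.

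Other genes of the pathway moved less uniformly. Of 18 on the array 13 were detected in blood: 6 were called higher and 3 lower with OVX, and 2 higher and 4 lower with CUMS. H2-Eb2 followed the members (0.45 and -0.52). The NF-Y subunit gene Nfyb (0.39 and -0.26) did too, as did cathepsin S (Ctss, 0.33 and -0.39), which trims the invariant chain. Cathepsin B (Ctsb, -0.45 and 0.55) and March8 (-0.47 and 0.51), a ubiquitin ligase that removes class II from the surface, went the other way. Of 7 MHC class I genes 4 were higher with OVX, the peptide transporter subunit Tap2 most (0.46), and 6 lower with CUMS, Tap1 most (-0.38). On the interferon-gamma axis, which induces Ciita, 3 of 8 were higher and 1 lower with OVX, and 1 higher and 3 lower with CUMS. Irf8 was 0.48 and -0.39.

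Cell markers moved along with these effects, and their part in them was not tested. Of the 9 B cell genes 6 were called higher with OVX (median 0.38), and 8 lower with CUMS (median -0.51), none in the other direction. The mean level of the B cell list was 3.24 to 3.65 in control, 2.67 to 3.43 in CUMS, 3.84 to 3.98 in OVX and 2.62 to 3.79 in OVX+CUMS mice, lowest of all in OVX+CUMS mouse 5. That mouse also had the highest neutrophil list level, 6.53, where the other 23 reached at most 4.62. Of 6 erythroid genes 5 were lower with OVX (median -0.53) and 5 higher with CUMS (median 0.45). Of 5 monocyte genes detected 0 were called for either effect, and of 8 T cell genes 0 were higher and 2 lower with OVX, and 0 higher and 4 lower with CUMS. Of 4 dendritic cell genes detected 1 was higher and 1 lower with OVX, and 1 lower with CUMS.

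Within groups the class II transcripts followed the B cell genes from mouse to mouse. After removing group means, Pearson's r with the B cell list over the 24 mice ran from 0.53 (Ciita) to 0.95 (H2-Ob A_66_P130916), with a median of 0.89, and Spearman's rho from 0.51 to 0.94. All 12 relations passed after adjustment over the 12 (permutation within groups, adjusted p from 1.2e-05 to 0.00681 for r and from 1.71e-05 to 0.0150 for rho), 1e-05 being the smallest raw p that 100000 permutations can give. How many of all detected probes would pass the same test was not counted, so the 12 are not shown to be particular. Without the 2 mice farthest from the median of the B cell list r ran from 0.54 to 0.92, and within slides from 0.60 to 0.98, from 0.46 to 0.95 and from 0.65 to 0.99. Ciita alone was lost when 1 mouse, OVX+CUMS mouse 5, was left out. The level of a list and of a probe share an array and its scaling.

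**Figure D3:**
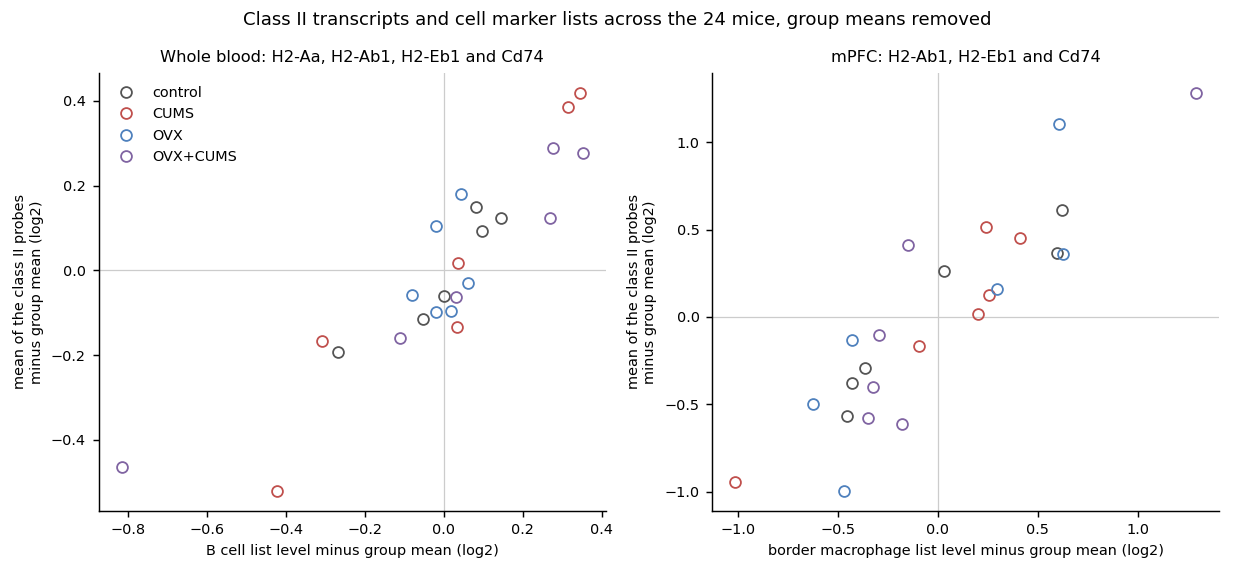
Each point is 1 of the 24 mice. The horizontal axis gives the mean level of a cell marker list and the vertical axis the mean of the class II probes named in each panel, both in log2 units after subtraction of the group mean. Points rise together in blood against the B cell list and in mPFC against the border macrophage list.

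As a description, among the genes most like the mean of H2-Aa, H2-Ab1, H2-Eb1 and Cd74 over the 24 blood samples, group means removed, were Ero1b and Syvn1 (r 0.96), Klc2 and Mif4gd (0.95), and Irf8, Pou2af1 and Cd40 (0.94). Pou2af1 encodes a B cell coactivator and Cd40 a receptor by which T cells stimulate antigen-presenting cells. Other members stood at r 0.94 (H2-DMb1), 0.93 (H2-DMb2), 0.87 (H2-DMa) and 0.87 (H2-Oa). Ciita, at 0.60, ranked 4002 among the detected probes.

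In mPFC the class II chains varied widely between mice in every group, and neither ovariectomy nor stress set them apart. H2-Ab1 A_55_P1962747 ran at -2.11, -1.23 and -0.56 in control, -1.29, -0.25 and 0.23 in CUMS, -2.24, -0.94 and 0.26 in OVX and -1.83, -1.37 and 0.32 in OVX+CUMS mice. All groups overlapped, and the spread within OVX mice alone exceeded 2 log2 units. Cd74 ran at -3.02, -2.51 and -1.99 in control, -2.64, -1.54 and -1.18 in CUMS, -2.82, -2.14 and -0.99 in OVX and -2.85, -2.41 and -0.96 in OVX+CUMS mice. The same mice were extreme on both: control mouse 6, OVX mouse 4 and OVX+CUMS mouse 6 were the highest of their groups, and CUMS mouse 2 the lowest of its own. The CUMS effect was 0.42 (95% interval -0.16 to 1.01) for this H2-Ab1 probe and 0.37 (-0.11 to 0.84) for Cd74, so an effect of either size cannot be set aside at this spread. For OVX the intervals were -0.84 to 0.33 and -0.51 to 0.44. The CUMS values also went with the slide. The 2 CUMS mice of slide 1 averaged -0.87 on H2-Ab1 A_55_P1962747 and -2.31 on Cd74. The 4 CUMS mice of slide 2 averaged -0.03 and -1.36. Control means, all on slide 1, were -1.29 and -2.51. On slide 3 the OVX means were -0.94 and -2.14 and the OVX+CUMS means -1.12 and -2.18. With the slide as a fixed block the median CUMS effect over the 8 detected probes was 0.08, in place of 0.24.

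**Figure D4:**
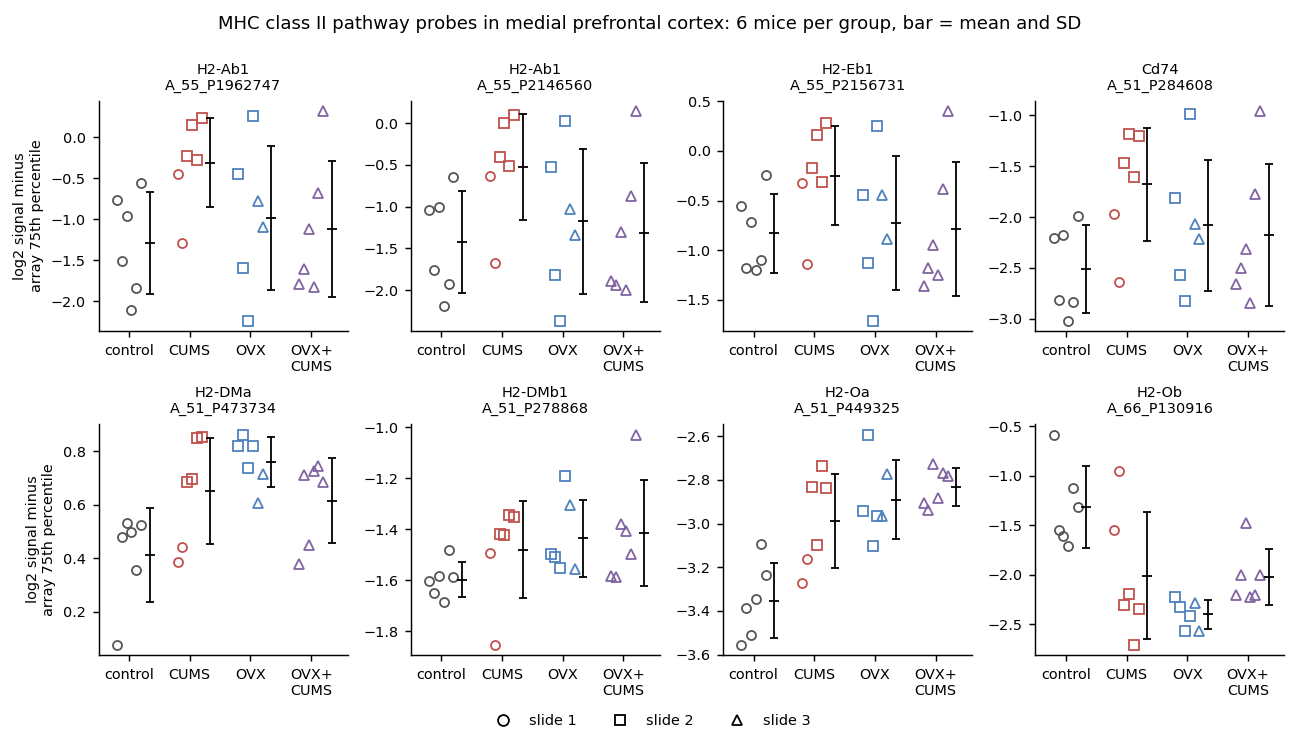
Level of the 8 detected probes in mPFC (vertical axis, log2 of the signal minus the array's 75th percentile, a separate scale in each panel) for the 6 mice of each group, with slides as point shapes and mean and SD as bars. H2-Ab1, H2-Eb1 and Cd74 spread widely in all groups; H2-Ob is higher in the 8 mice of slide 1 than in nearly all mice of slides 2 and 3.

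Of the 8 probes detected in mPFC, 2 were called for OVX, where 30.9% of all 28358 detected probes were. H2-Oa gave -3.55, -3.37 and -3.09 in control, -3.27, -2.97 and -2.74 in CUMS, -3.10, -2.96 and -2.59 in OVX and -2.94, -2.83 and -2.73 in OVX+CUMS mice. Every OVX+CUMS mouse was above every control mouse, as on 8.59% of all detected probes. Its OVX effect was 0.31 (SE 0.068, adjusted p = 0.00155), and OVX+CUMS minus control was 0.52 (adjusted p = 0.000295, exact permutation p = 0.00217, the smallest that 6 against 6 allows). H2-Ob A_66_P130916 went the other way, with -1.71, -1.43 and -0.59 in control, -2.71, -2.25 and -0.96 in CUMS, -2.57, -2.37 and -2.23 in OVX and -2.23, -2.11 and -1.48 in OVX+CUMS mice. All OVX mice were below all control mice. The OVX effect was -0.55 (SE 0.16, adjusted p = 0.0121), and OVX+CUMS minus control was -0.70 (adjusted p = 0.0195, exact permutation p = 0.00866). For H2-Ob this rests on 1 probe. A_55_P2082929, near background in mPFC and not tested, averaged -5.03 in control, -4.94 in OVX and -4.69 in OVX+CUMS mice.

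Both H2-Oa and H2-Ob A_66_P130916 followed the slide. On H2-Ob the 2 CUMS mice of slide 1 averaged -1.25 beside -1.32 for control, whereas the 4 CUMS mice of slide 2 averaged -2.39 and the OVX means were -2.39 (slide 2) and -2.43 (slide 3). On H2-Oa the CUMS means were -3.22 on slide 1 and -2.88 on slide 2, with -3.35 for control and -2.90 and -2.87 for OVX mice. With the slide as a block 0 of 8, and 0 of all 28358 probes, were called for OVX and the H2-Ob effect turned to 0.24. Within slide 2 CUMS minus OVX was called for 0 of 8 (limma; 0 at an unadjusted p under 0.05; 0.0423% of all probes called) and was 0.03 for H2-Oa and 0.00 for H2-Ob.

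Stress was called for 0 of 8 probes in mPFC (limma; 4.19% of all probes), 1 of them, H2-Oa, at an unadjusted p under 0.05 (0.21, adjusted p = 0.0694). The interaction was called for 0 of 8 (4.49% of all probes), with 3 at an unadjusted p under 0.05: H2-DMa, H2-Oa and H2-Ob. H2-DMa lay at 0.08, 0.49 and 0.53 in control and 0.61, 0.78 and 0.86 in OVX mice without overlap, its OVX effect being 0.16 (adjusted p = 0.0698). Of all probes 11.4% had every OVX mouse above every control mouse and 9.64% every OVX mouse below. OVX+CUMS minus control was called for 2 of 8, H2-Oa and H2-Ob, with 33.4% of all probes called.

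Of the 15 other pathway genes detected in mPFC, 2 were called higher (Ctsl 0.12 and Lgmn 0.10, both lysosomal proteases) and 1 lower (Cd80 -0.45) with OVX, and 0 with CUMS. Of 11 microglia genes 7 were higher with OVX, with a median of 0.16, and 0 were called for CUMS. Of all 28358 detected probes 5423 were called higher with OVX, and 0 with the slide as a fixed block. Of the 4 border macrophage genes detected (Mrc1, Pf4, Ms4a7 and Cbr2; macrophages of the meninges and of the spaces around vessels) 0 were called for either.

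The cortical chains and the border macrophage list rose and fell together from mouse to mouse. The list was set against them after the likeness described next had been seen, and its genes Mrc1 and Cbr2 are part of that likeness, so these values are a description and carry no p. With group means removed, r over the 24 mice was 0.89 and 0.90 for the H2-Ab1 probes, 0.89 for H2-Eb1, 0.89 for Cd74 and 0.76 for H2-DMb1, and 0.18 for H2-DMa, -0.01 for H2-Oa and -0.14 for H2-Ob. Spearman's rho was 0.66 to 0.90 for the first 5. Without the 2 mice farthest out r of those 5 was 0.56 to 0.85. Within slides it was 0.61 to 0.98 on slide 1, 0.62 to 0.91 on slide 2 and 0.84 to 0.93 on slide 3. The microglia list was also taken up after that likeness had been seen, so its values too are a description. Its r was 0.48 to 0.60 on 7 of 8 probes and -0.25 on H2-Ob, with rho 0.35 to 0.55 and -0.16. Without the 2 mice farthest out r of those 7 was 0.31 to 0.57. Within slides it was 0.18 to 0.64 on slide 1, 0.23 to 0.61 on slide 2 and 0.36 to 0.91 on slide 3. Without CUMS mouse 2 r over the 8 ran from -0.01 to 0.54, and without OVX+CUMS mouse 6 from -0.29 to 0.61.

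The genes most like the mean of H2-Ab1, H2-Eb1 and Cd74 in mPFC were Ifitm2 and Cp (r 0.94), F13a1 (0.92), and Mrc1, Lum, Cbr2, C1qtnf7 and Stab1 (0.89). Mrc1, Cbr2 and Stab1 mark tissue-resident macrophages of borders, and Lum encodes a matrix proteoglycan of fibroblasts. These are descriptions. H2-DMb1 stood at 0.75, H2-DMa at 0.27, H2-Oa at 0.12 and H2-Ob at -0.12 on the same measure.

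Blood and cortex were then set side by side in the same mice. The stress effect was lower in blood than in mPFC for 7 of the 8 probes detected in both (limma with the mouse as a random block; 51.4% of 17544 probes called, 33.8% lower), by -0.88 to -0.49, H2-Ob being the exception (-0.28, adjusted p = 0.225). With the slide as a fixed block 4 of 8 were called (6658 of all probes), Cd74, H2-Eb1 and both H2-Ab1 probes being lost, and with spike-in scaling 0 of 8 and 0 of all probes. The ovariectomy effect differed for 2 of 8 (39.3% of all probes called, 19.9% higher in blood), H2-DMa (0.35) and H2-Ob (1.10). With the slide block 0 of 8 and 0 of all probes were called and H2-Ob stood at 0.21. With normexp 8 were called (7791 of all probes), and with spike-in scaling 7 (8601 of all, 8513 of them higher in blood). Across the 24 mice, group means removed, blood and mPFC levels of the same probe were related on 0 of 8 (r from -0.12 to 0.15, rho from -0.36 to 0.22, permutation adjusted p 0.982 for each r and from 0.900 to 0.955 for rho). Without the 2 farthest mice r ran from -0.59 to 0.34, and within slides from -0.88 to 0.72.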

How the data were processed

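The deposited arrays (Agilent SurePrint G3 Mouse, single colour, Cy3) gave 1 text file each. Per the file headers the authors quantified them with Feature Extraction 10.7.3.1, which subtracts background, and each deposited file gives the processed signal as an intensity per spot. The authors' value table holds log2 intensities shifted to each array's 75th percentile. It agreed within 0.001, up to 1 constant per array, on 100% of probes with 1 spot, and served as an alternative. Here control and outlier-marked spots were left out, spots of a probe averaged, and log2 processed signal was shifted by each array's 75th percentile in R 4.3.3. Detected probes were tested with limma 3.58.1 (lmFit, eBayes, two-sided, Benjamini-Hochberg over all detected probes of a tissue) on the 4 groups, as a 2-factor design. No member spot was saturated. The 6 mice of a group were separate animals. Correlations used 100000 permutations within groups. Scripts were tested on simulated data. Alternatives were normexp (offset 50), quantile normalization, percentiles over detected probes, spike-in scaling, the filter, moderation, slide, replicate number and leaving out each mouse.

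All member probes were named, with lists by counts, H2-Ea, H2-Eb2 and at most 3 called genes per list and effect, a list gene being read by its brightest probe, and the 8 genes of highest r, apart from a few items that are not reported here. The members and lists were chosen with earlier results of these data known. Added after values were seen were 2 more probes described as Ciita, the promoter motifs, and the border macrophage and microglia correlations.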

Additional observations from a re-analysis of the deposited data

Results flagged for a closer look

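In 4 of 80 sets of 6 arrays 1 mouse stood apart from the other 5 (5%, where chance sets about 1 in 20 apart). These were Ciita in blood of control mouse 2 (0.37, the next being 0.76), H2-DMb1 in mPFC of CUMS mouse 2 (-1.85, next -1.49) and of OVX+CUMS mouse 6 (-1.03, next -1.38), and H2-Ob A_66_P130916 in mPFC of OVX+CUMS mouse 3 (-1.48, the median of the 6 being -2.11). CUMS mouse 2 and OVX+CUMS mouse 6 also had the lowest and the highest border macrophage list levels of all 24 mPFC samples, -2.68 and -0.88.

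The stress effect in blood differed between sham and OVX mice on the Ciita probe, with an interaction of 1.56 in limma. The OVX effect differed between blood and mPFC for H2-DMa (blood minus mPFC 0.35) and H2-Ob A_66_P130916 (1.10). The CUMS effect differed for H2-Ab1 (-0.84 and -0.88), H2-Eb1 (-0.76), Cd74 (-0.81), H2-DMa (-0.49), H2-DMb1 (-0.49) and H2-Oa (-0.79). Ciita and H2-Ob A_66_P130916 went with the slide within the CUMS group. Ciita in blood averaged 0.11 on slide 1 and -0.76 on slide 2, and H2-Ob in mPFC -1.25 and -2.39. Other mPFC probes split by slide within the CUMS group too, being higher on slide 2. Their means on slides 1 and 2 were -2.31 and -1.36 for Cd74 and -0.87 and -0.03 for H2-Ab1 A_55_P1962747. For H2-Eb1 they were -0.73 and -0.01, and for H2-DMa 0.41 and 0.77. The tissue differences in CUMS of Cd74, H2-Eb1 and H2-Ab1 were not called with the slide block. Control shared no slide with OVX or OVX+CUMS mice, so slide and ovariectomy cannot be told apart.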

How the results depend on the processing

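The 12 blood probes stayed above 0 for OVX and below 0 for CUMS under every alternative run. Counts of called probes moved with the slide, with the scaling and with single mice. With the slide as a fixed block the blood OVX count fell from 10 to 0, and with it as a random block to 5. Within slide 1 or slide 3 the blood CUMS count fell from 12 to 0. The blood interaction (Ciita) fell from 1 to 0 with spike-in scaling, with no filter, with detection on all 48 arrays, without moderation and with the slide as a fixed or a random block. In mPFC the counts for OVX and for OVX+CUMS minus control fell from 2 to 1 with spike-in scaling and to 0 with either slide block, the interaction rose from 0 to 1 with detection on all 48 arrays, and CUMS minus OVX on slide 2 rose from 0 to 2 with spike-in scaling. The blood minus mPFC difference in OVX went from 2 to 8 with normexp (7791 of all 17544 probes called), 6 with quantile (7855) and 4 with percentiles over detected probes (7929). With spike-in scaling it was 7 (8601 of all, 8513 of them higher in blood) and with the slide block 0 (0 of all). That in CUMS went from 7 to 0 with spike-in scaling (0 of all 17544 probes) and 4 with the slide block (6658 of all). Without group centring r with the microglia list ran from -0.49 to 0.73, in place of -0.25 to 0.60. The cause of these moves was not tested.

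Directions turned for H2-Ob A_66_P130916 in mPFC with the slide block (OVX 0.24, OVX+CUMS minus control 0.47), for the H2-Oa tissue difference in OVX with normexp (0.33, from -0.03), and for the H2-Oa correlation with border macrophages with spike-in scaling (r 0.46, from -0.01).

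Leaving out 1 mouse gave 10 to 12 called probes for blood OVX, 11 to 12 for blood CUMS, 0 to 1 for the blood interaction, 2 to 3 for mPFC OVX, 0 to 1 for mPFC CUMS, 0 to 2 for the mPFC interaction, 1 to 3 for mPFC OVX+CUMS minus control, and 2 to 6 for the tissue difference in OVX. The 2 probes of the mPFC interaction, H2-DMa and H2-Ob, came without CUMS mouse 1 or mouse 2, the 1 probe of mPFC CUMS, H2-Oa, without control mouse 5 or CUMS mouse 1 or mouse 2, and the 6 without CUMS mouse 2, OVX mouse 4 or OVX+CUMS mouse 6 in mPFC. Without mPFC control mouse 1, H2-Ob was no longer called in OVX+CUMS minus control.

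Mice of different groups that share a replicate number did not, at the median, deviate together. Their median r was -0.09 in blood (from -0.51 to 0.49) and 0.04 in mPFC (from -0.23 to 0.39). No pairing across groups by number was seen in these values, though a weak one could be missed. The blood and mPFC arrays of the same mouse are paired by the labels. With the replicate block the blood interaction count fell to 0, blood CUMS was 11, mPFC OVX 3, and the other counts of the groups kept their value. Arrays this few limit precision, and signals near background, as for H2-Aa and Ciita in mPFC, were not tested.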
